A study of Mus musculus with 6 samples.

Results

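The aminoacyl-tRNA synthetases charge each transfer RNA with its amino acid. The set examined here was chosen by gene symbol and comprised 36 genes, of which 20 encode enzymes that act in the cytosol and 16, whose symbols end in 2, encode enzymes of the mitochondrion. All 36 were found among the 24223 genes of the count tables, and all 36 were among the 13607 genes that passed the filter on low counts. The smallest count of any member in any library was 94, for *Pars2*.

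RNA-Seq was available for 3 types of mouse CD4+ T cell, with 2 biological replicates each, hence 6 libraries. Naive cells were CD4+CD44- cells from C57BL/6 mice aged 1 to 2 months, isolated from pooled lymph nodes and spleens. Th17 cells were these cells after stimulation through CD3 and CD28 with anti-IL-4, anti-IFN-γ, TGF-β, IL-6, IL-1β and IL-23. Th1 cells were stimulated through CD3 and CD28 with anti-IL-4, IL-12 and IL-2, and both were collected on the fifth day. The stimulus was bound anti-CD3 with soluble anti-CD28, or beads against CD3 and CD28. The sources do not say which culture received which. The cultures were not described as sorted before the RNA was taken, the Naive cells were not cultured, and the time in culture therefore cannot be told apart from activation and polarization in a comparison with Naive.

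Each synthetase joins an amino acid to the transfer RNAs that carry its anticodons, with ATP as the energy source. The cytosolic enzymes supply the ribosomes that translate nuclear messages, and several of them sit in a complex held together by scaffold proteins. The mitochondrial enzymes are also encoded in the nucleus and are imported to supply translation of the few proteins that mitochondrial DNA encodes, all subunits of the respiratory chain and the ATP synthase. *Kars* and *Gars* are exceptions, since each gives rise to both the cytosolic and the mitochondrial enzyme. Several members also respond to signals: many cytosolic synthetase genes are targets of the transcription factor ATF4 when amino acids are short, and *Wars* is induced by interferon-γ, the cytokine that Th1 cells secrete.

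The libraries held 17742158 to 69080017 counts, and replicate 1 was the deeper library in each cell type. The cytosolic members took 0.196% to 0.286% of all counts and the mitochondrial members 0.0504% to 0.0850%. Summed levels of T cell markers (*Cd3d*, *Cd3e*, *Cd3g*, *Cd4*, *Lck*) lay between 2250 and 3350 CPM in all libraries (counts scaled to the library total times its TMM factor, as for all levels below), B cell markers at 15.1 CPM or less, and markers of CD8 T and NK cells between 6.71 and 27.0 CPM. The 6 neutrophil markers, led by *S100a8* and *S100a9*, summed to 2807 and 2715 CPM in the Th17 libraries and to 20.6 to 59.6 CPM elsewhere, with none of the 6 at 0 in both libraries of a cell type. *Elane* did not follow the sum. It stood at 57.3 and 29.6 CPM in Naive, where it made up most of the sum, and at 52.5 and 46.9 CPM in Th17. The 4 macrophage and monocyte markers summed to 301 and 853 CPM in Th17 and to 9.39 to 44.4 CPM elsewhere. The Th17 sums were mostly *Lyz2* (223 and 762 CPM) and *Cybb* (72.6 and 77.4 CPM). *Csf1r*, at 5.34 and 11.7 CPM in Th17, overlapped Naive (7.41 and 4.80 CPM), and *C1qa* reached at most 1.70 CPM in any library. The 7 erythroid markers summed to 110 and 17.2 CPM in Naive and to at most 1.64 CPM elsewhere. The Naive sums were mostly *Klf1*, at 97.5 and 16.2 CPM, and the 4 globin genes were at 0 in every library. The 5 proliferation genes summed to 3121 and 810 CPM in Th1, 855 and 716 CPM in Th17 and 752 and 402 CPM in Naive. The part of these cells and of cycling in the differences below was not tested.

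Few synthetases passed the test for a difference between the cell types. *Wars* rose in Th1 over both other cell types and fell in Th17 below Naive, *Vars* rose in Th1 over Th17, *Vars2* fell in Th17 below Naive, and *Mars2* fell in Th1 below both. These are 4 of the 36 members, called by edgeR's quasi-likelihood test across all genes at a Benjamini-Hochberg adjusted p under 0.05. The differences of *Wars* from Naive lost this call whenever any 1 of the 6 libraries was left out. Those of *Vars*, *Vars2* and *Mars2* each lost it without certain single libraries, given below. By a stricter rule, which asks for an adjusted p under 0.01 together with a log2 fold change beyond 1 in either direction, *Wars* in Th1 against Th17 was the single call. In bulk RNA a smaller share of cells of a type and less RNA per cell cannot be told apart.

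**Figure D1:**
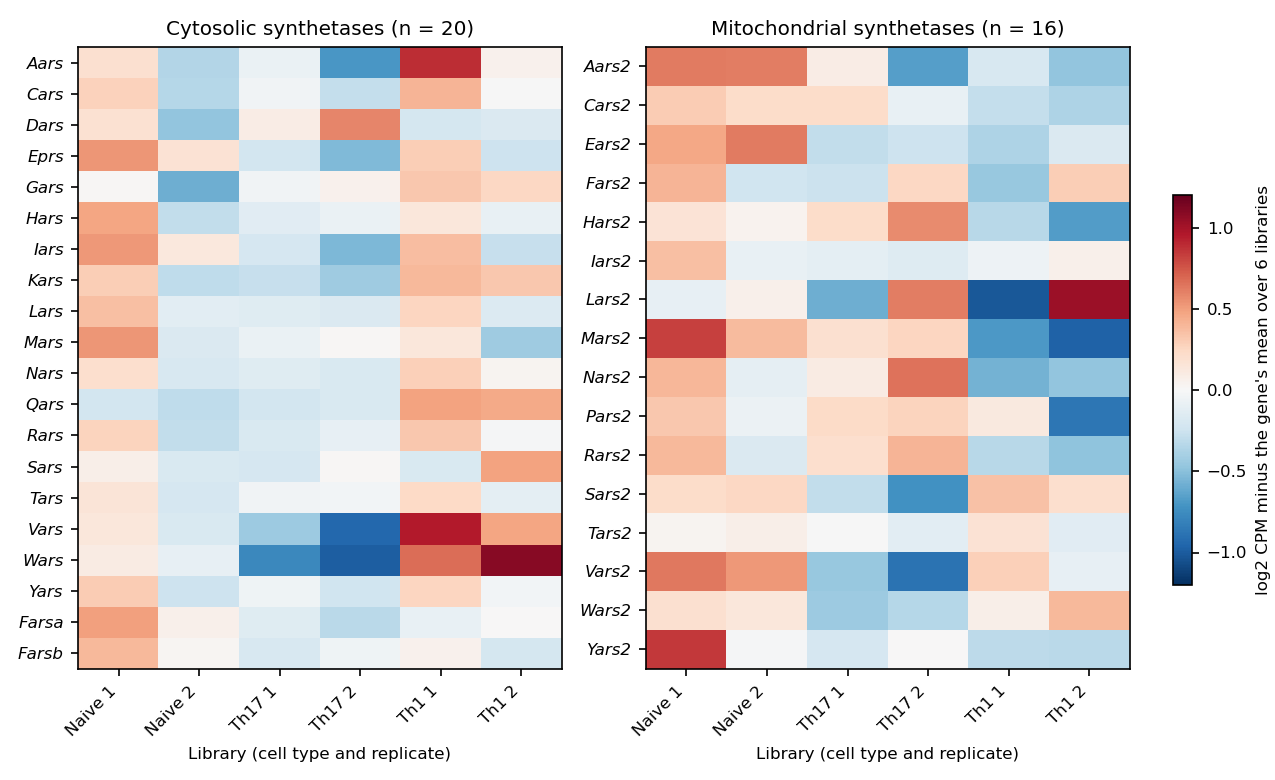
Level of the 20 cytosolic (left) and 16 mitochondrial (right) synthetases in the 6 libraries, as log2 CPM minus the gene's own mean over the libraries. Rows are genes, columns are cell type and replicate, red is above and blue below the mean, and the colour scale stops at 1.2 in either direction. *Wars* was blue in both Th17 and red in both Th1 libraries, *Mars2* was deep blue in both Th1 libraries, and *Lars2* had opposite colours in the replicates of Th17 and of Th1.

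Between Th17 and Naive, 0 of the 36 members passed the stricter rule, against 5.43% of all genes tested. At an adjusted p under 0.05 alone, 2 members (5.56%) passed, *Wars* and *Vars2*, both lower in Th17, against 15.9% of all genes in either direction and 6.51% in that direction. At an unadjusted p under 0.05 there were 7 members (19.4%), against 33.3% of all genes, and DESeq2 called 1 by the stricter rule, *Vars2*, against 12.3% of the genes it tested. Between Th1 and Naive, 0 of 36 passed the stricter rule, against 7.45% of all genes, and 2 members (5.56%), *Wars* higher and *Mars2* lower, passed an adjusted p under 0.05, against 16.4%. Here 7 members (19.4%) had an unadjusted p under 0.05, against 29.9% of all genes, and DESeq2 called 1, *Mars2*, against 13.3%. Between Th1 and Th17, *Wars* was 1 of 36 (2.78%) by the stricter rule, against 5.53% of all genes, and *Wars* and *Vars* higher and *Mars2* lower made 3 members (8.33%) at an adjusted p under 0.05, against 16.4%, with 8.25% of all genes higher in Th1. An unadjusted p under 0.05 was reached by 11 members (30.6%), against 33.8%, and DESeq2 called *Wars*, *Vars* and *Mars2*, against 13.2%. In each comparison the share of members that passed was below the share of all genes.

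*Wars* encodes the cytosolic tryptophanyl-tRNA synthetase and lies at chr12:108860030-108894174 on the minus strand (GRCm38). Its level was 88.6 and 77.4 CPM in Naive, 48.4 and 41.6 CPM in Th17, and 132 and 177 CPM in Th1. The 3 cell types did not overlap, with Th17 lowest and Th1 highest. Th1 exceeded Th17 3.43-fold, a log2 difference of 1.78 ± 0.27 (SE; adjusted p = 0.0027, edgeR). Against Naive, the log2 difference was 0.89 ± 0.26 in Th1 (adjusted p = 0.045, edgeR) and -0.88 ± 0.26 in Th17 (adjusted p = 0.049, edgeR). Both comparisons with Naive share the Naive libraries and stood close to the threshold: without any 1 of the libraries, the adjusted p lay between 0.052 and 0.25 for Th1 and between 0.056 and 0.33 for Th17. With all libraries, other tools, scalings and filters gave 0.014 to 0.13 for Th1 and 0.020 to 0.064 for Th17, on both sides of 0.05. The Th1 to Th17 difference kept its size without Th17 replicate 1 (1.88, adjusted p = 0.023), Th17 replicate 2 (1.68, adjusted p = 0.034) or Th1 replicate 2 (1.56, adjusted p = 0.016), each of which raised the adjusted p above 0.01, and the adjusted p was at most 0.0045 without any other library. The mitochondrial counterpart *Wars2* was among the lowest members and is described with the levels per length.

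**Figure D2:**
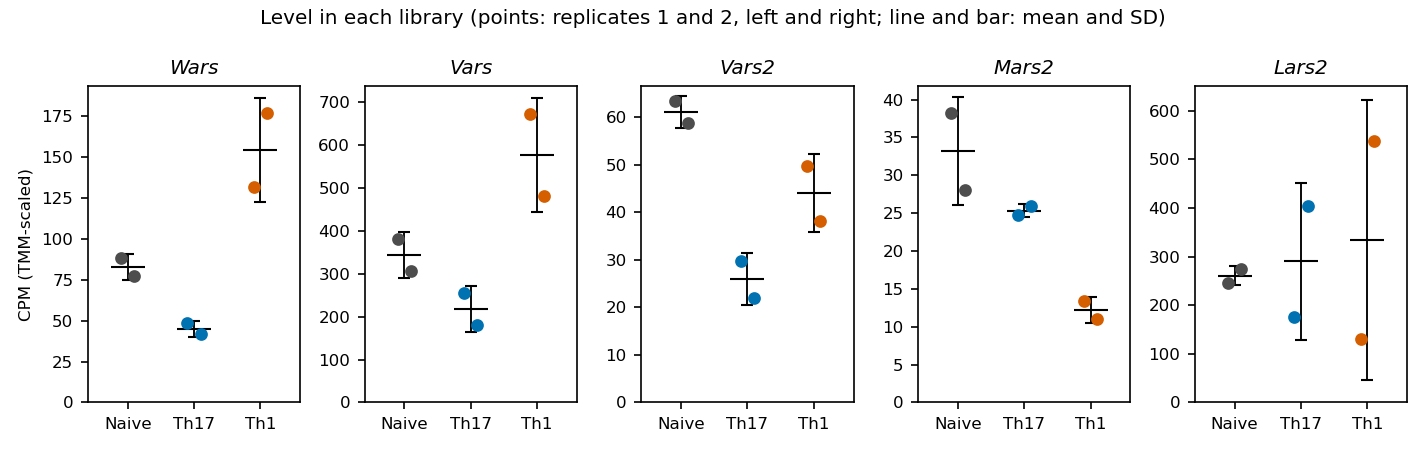
CPM (TMM-scaled, axis from 0) of *Wars*, *Vars*, *Vars2*, *Mars2* and *Lars2* in Naive, Th17 and Th1. Points are replicates 1 (left) and 2 (right), the horizontal line is their mean and the bar 1 SD. *Wars* ran from 41.6 CPM in Th17 to 177 CPM in Th1 with no overlap between cell types, while *Lars2* spanned 131 to 538 CPM within Th1 alone.

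*Vars*, the cytosolic valyl-tRNA synthetase (chr17:35000987-35016322, plus strand), had the highest mean CPM per kb of exon over all libraries. It was measured at 381 and 306 CPM in Naive, 256 and 181 CPM in Th17, and 671 and 482 CPM in Th1. Here too both Th1 libraries lay above and both Th17 libraries below the Naive libraries. The Th1 level was 2.64-fold that of Th17, a log2 difference of 1.40 ± 0.32 (SE; adjusted p = 0.017, edgeR), which lost the call without Th1 replicate 1 (adjusted p = 0.085) or Th17 replicate 2 (adjusted p = 0.17). The differences from Naive, 0.75 ± 0.31 in Th1 (adjusted p = 0.14) and -0.65 ± 0.31 in Th17 (adjusted p = 0.17, both edgeR), did not pass.

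*Kars* and *Gars*, which serve both compartments, did not pass the test in any comparison. *Kars*, the lysyl-tRNA synthetase (chr8:111993443-112011323, minus strand), stood at 228 and 150 CPM in Naive, 154 and 139 CPM in Th17, and 245 and 233 CPM in Th1. Th1 lay above the other cell types with this scaling. With library size alone, Naive replicate 1 (240 CPM) exceeded both Th1 libraries (229 and 201 CPM). The log2 difference of Th1 from Th17, 0.70 ± 0.28 (SE), had an adjusted p of 0.11 (edgeR). That from Naive, 0.34 ± 0.28, had an adjusted p of 0.48 (edgeR). *Gars*, the glycyl-tRNA synthetase (chr6:55038007-55079500, plus strand), gave 142 and 93.8 CPM in Naive, 137 and 146 CPM in Th17, and 176 and 168 CPM in Th1. The Naive replicates of *Gars* differed 1.52-fold and overlapped Th17, and the largest log2 difference, Th1 over Naive, was 0.54 ± 0.28 (adjusted p = 0.23, edgeR).

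The 20 cytosolic synthetases were also summarised by the median of their log2 fold changes. Th17 to Naive log2 fold changes had a median of -0.25 (all genes tested, -0.02), with 17 genes below 0 and 3 above, but the median was 0.06 without Naive replicate 1 and -0.53 without Naive replicate 2. Th1 to Naive had a median of 0.12 (all genes, -0.02), with 12 above and 8 below, and the median was -0.09 without Naive replicate 2 and -0.12 with library size alone as the scaling. Th1 to Th17 had a median of 0.29 (all genes, -0.03), with 18 above and 2 below, and the median was 0.13 without Th1 replicate 1 and 0.08 with library size alone.

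The members were also counted by whether the libraries of 2 cell types overlapped. In Th1 over Th17, 11 of 20 cytosolic members (55%) had both Th1 libraries above both Th17 libraries, against 31.5% of all genes, but with library size alone as the scaling this was 4 of 20 against 20.9%. In Th1 over Naive it was 5 of 20 (*Gars*, *Kars*, *Qars*, *Vars* and *Wars*, 25%) against 27.6%, near the background, and with library size alone 3 of 20 against 18.7%. In Th17 below Naive it was 7 of 20 (35%) against 33.1%, again near the background. *Qars*, the glutaminyl-tRNA synthetase, had the tightest replicates of all members and was singled out after its values were seen: 152 and 143 CPM in Naive, 152 and 156 CPM in Th17, and 248 and 243 CPM in Th1. Both Th1 libraries were far above the 4 others, yet the log2 difference of 0.73 ± 0.25 from Naive had an adjusted p of 0.072 and that of 0.67 ± 0.25 from Th17 an adjusted p of 0.089 (edgeR). The choice of scaling matters for all such counts, since library size alone in place of TMM moved the median over all genes to -0.26 in Th1 against Naive and to -0.24 in Th1 against Th17.

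**Figure D3:**
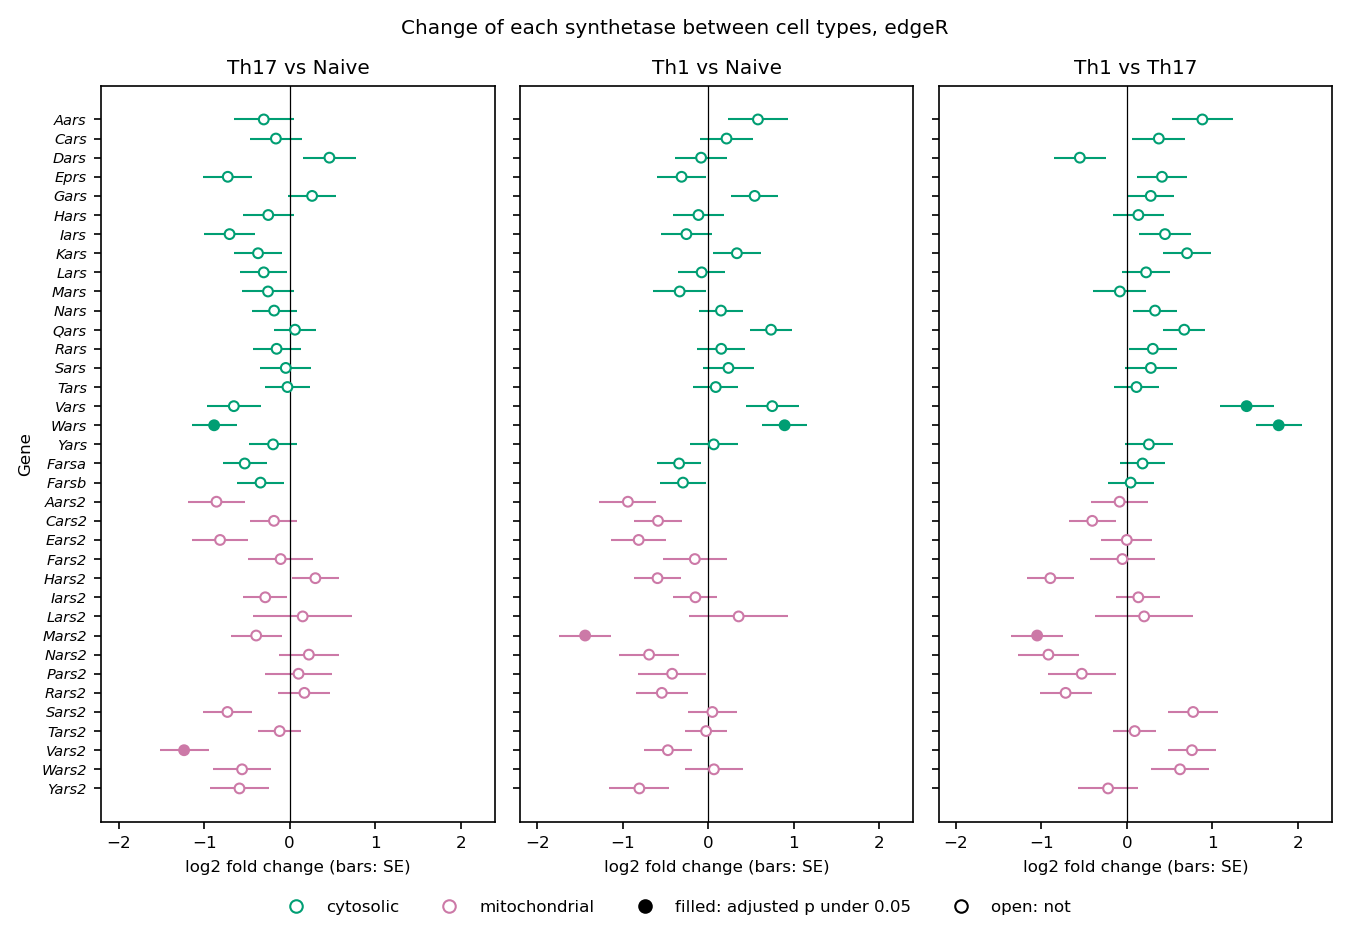
log2 fold change of each synthetase (rows) in Th17 against Naive, Th1 against Naive and Th1 against Th17, with bars of 1 SE from the edgeR fit. Green points are cytosolic and pink points mitochondrial, and filled points had an adjusted p under 0.05. In Th1 against Th17, 18 of the 20 cytosolic points lie above 0, while in Th1 against Naive 13 of the 16 mitochondrial points lie below 0.

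The 16 mitochondrial synthetases had medians below 0 in both cultures against Naive. Th17 to Naive had a median log2 fold change of -0.23 with 11 genes below 0 and 5 above, and Th1 to Naive of -0.51 with 13 below and 3 above, beside -0.02 for all genes in both. These medians against Naive were -0.11 and -0.27 without Naive replicate 1, and -0.45 and -0.61 without Naive replicate 2. Th1 to Th17 had a median of -0.07 with 10 below and 6 above, against -0.03 for all genes. Both Th1 libraries lay below both Naive libraries for 9 of 16 (56.2%: *Aars2*, *Cars2*, *Ears2*, *Hars2*, *Mars2*, *Nars2*, *Rars2*, *Vars2* and *Yars2*), against 28.4% of all genes, and none lay above. With library size alone the count was 14 of 16 (87.5%), against 40.8%. In Th17 below Naive it was 8 of 16 (50%) against 33.1%, and in Th1 below Th17 it was 7 of 16 (43.8%) against 35.1%, or 8 of 16 against 44.6% with library size alone.

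*Mars2*, the mitochondrial methionyl-tRNA synthetase (chr1:55237177-55248470, plus strand), was the member with the deepest fall in Th1. It was measured at 38.2 and 28.1 CPM in Naive, 24.8 and 25.9 CPM in Th17, and 13.4 and 11.0 CPM in Th1. Both Th1 libraries were the lowest of the 6 and no cell types overlapped. Th1 was 2.71-fold lower than Naive, a log2 difference of -1.44 ± 0.31 (SE; adjusted p = 0.011, edgeR), and lower than Th17 by a log2 difference of -1.05 ± 0.30 (adjusted p = 0.043, edgeR). The first lost its call without Naive replicate 1 (adjusted p = 0.057) or Th1 replicate 2 (adjusted p = 0.054), and the second without any 1 of the Th17 and Th1 libraries (adjusted p from 0.076 to 0.24). Th17 and Naive differed by -0.39 ± 0.30 (adjusted p = 0.38, edgeR).

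*Vars2*, the mitochondrial valyl-tRNA synthetase (chr17:35655634-35667592, minus strand), showed its lowest level in Th17. It gave 63.4 and 58.8 CPM in Naive, 29.8 and 22.1 CPM in Th17, and 49.9 and 38.2 CPM in Th1. The cell types followed each other without overlap in the order Naive, Th1, Th17. Th17 was 2.35-fold lower than Naive, a log2 difference of -1.23 ± 0.29 (SE; adjusted p = 0.019, edgeR), which lost the call without Naive replicate 1 (adjusted p = 0.055), Th17 replicate 1 (adjusted p = 0.053) or Th17 replicate 2 (adjusted p = 0.19). Th1 differed from Naive by -0.47 ± 0.28 (adjusted p = 0.31) and from Th17 by 0.76 ± 0.28 (adjusted p = 0.093, both edgeR). In the annotation, 8.52% of its exon bases overlap *Gm20483* on the opposite strand, and the sources differ on the strand setting used for counting.

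*Vars* and *Vars2* charge the same amino acid, and both were lowest in Th17. They parted in Th1, where *Vars* lay above and *Vars2* below the Naive libraries. Neither of these differences from Naive passed the test (adjusted p = 0.14 for *Vars* and 0.31 for *Vars2*, edgeR).

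*Lars2*, the mitochondrial leucyl-tRNA synthetase (chr9:123366927-123462666, plus strand), stood apart from the other members in its spread and was described after its values were seen. It was measured at 247 and 275 CPM in Naive, 176 and 405 CPM in Th17, and 131 and 538 CPM in Th1. Its replicates differed 4.11-fold in Th1 and 2.29-fold in Th17, and the shallower replicate 2 was the higher in every cell type. In the other 35 members the largest fold between replicates of a cell type was 1.97, for *Pars2*. With an SE of 0.58, the log2 differences of *Lars2* between cell types, 0.15 to 0.36, were well inside the error.

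The ratio of the summed levels of the classes does not depend on the scaling of the libraries. Cytosolic sums were 2706 and 2007 CPM in Naive, 2031 and 1970 CPM in Th17, and 3055 and 2691 CPM in Th1. Mitochondrial sums were 809 and 749 CPM in Naive, 598 and 826 CPM in Th17, and 539 and 916 CPM in Th1. The cytosolic to mitochondrial ratio was then 3.35 and 2.68 in the Naive libraries, 3.40 and 2.39 for Th17, and 5.67 and 2.94 for Th1, so the cell types overlapped.

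*Lars2* supplied up to 538 of the 916 CPM of a mitochondrial sum, and the ratio was recomputed without it after the data were seen. The other 15 mitochondrial members summed to 562 and 474 CPM in Naive, 421 and 421 CPM in Th17, and 408 and 378 CPM in Th1. The ratio became 4.81 and 4.24 for Naive (mean 4.53 ± 0.408, SD, n = 2), 4.82 and 4.68 for Th17 (4.75 ± 0.101), and 7.49 and 7.11 for Th1 (7.30 ± 0.269). Both Th1 libraries then lay above the 4 others, while Naive and Th17 overlapped. No test was run on a value chosen in this way, and 2 libraries against 2 cannot give an exact permutation p below 0.333.

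**Figure D4:**
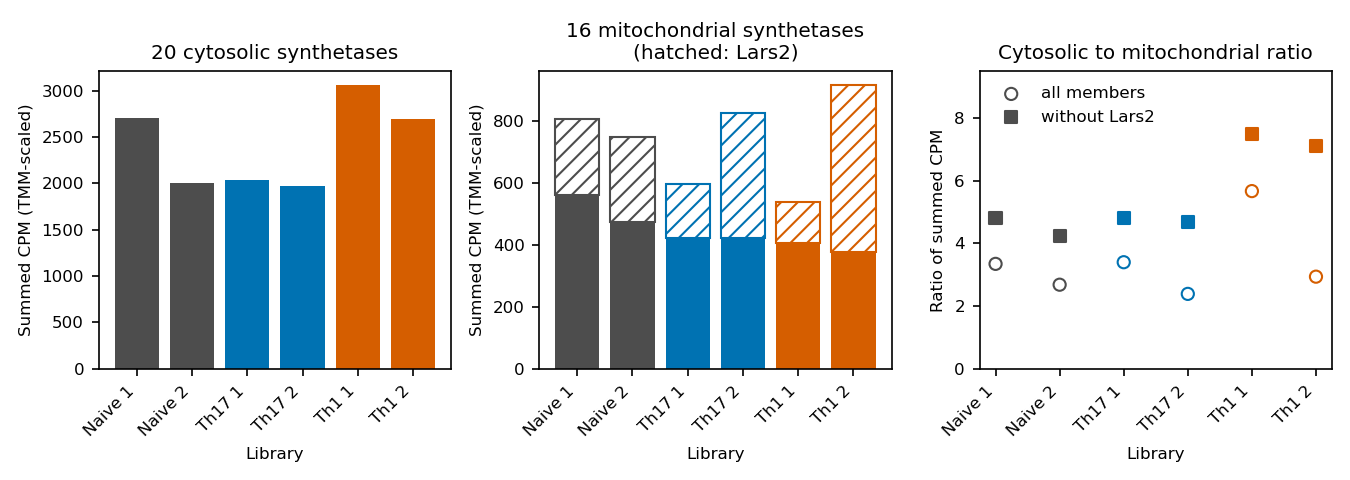
Summed CPM (TMM-scaled, axes from 0) of the 20 cytosolic and 16 mitochondrial synthetases in each library, and the ratio of the sums. Hatched parts of the mitochondrial bars are *Lars2*; in the ratio panel circles are all members and squares leave out *Lars2*. Without *Lars2* the Th1 libraries stand at 7.49 and 7.11 and the 4 others between 4.24 and 4.82.

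Pairs were formed where a cytosolic and a mitochondrial gene shared a symbol apart from the final 2, which gives 13 pairs. *Eprs*, for glutamate and proline, and the phenylalanine subunit genes *Farsa* and *Farsb* were left out with their mitochondrial counterparts. Of these, *Farsa* (log2 fold change -0.34) and *Farsb* (-0.29) lay below *Fars2* (-0.16) in Th1 against Naive. *Eprs* (-0.31) lay above *Ears2* (-0.81) and *Pars2* (-0.42). In Th1 against Naive the log2 fold change of the cytosolic gene exceeded that of its mitochondrial partner in 11 of 13 pairs, all but *Iars* with *Iars2* and *Lars* with *Lars2*. In Th1 against Th17 it did so in 12 of 13, all but *Sars* with *Sars2*, and in Th17 against Naive in 7 of 13. The cytosolic minus the mitochondrial log2 fold change ran from -0.43 (*Lars* with *Lars2*) to 1.52 (*Aars* with *Aars2*) in Th1 against Naive. The pairs of *Wars*, *Vars* and *Mars2*, given because these members passed the test, lay at 0.83, 1.22 and 1.11. Per kilobase of exon, *Mars* was 10.3 and 8.61 times *Mars2* in Naive, 10.4 and 10.6 times in Th17, and 22.4 and 18.5 times in Th1. *Vars* was 5.84 and 5.06 times *Vars2* in Naive, 8.37 and 7.97 times in Th17, and 13.1 and 12.3 times in Th1. *Wars* was 15.0 and 13.6 times *Wars2* in Naive, 12.7 and 10.2 times in Th17, and 24.4 and 26.2 times in Th1.

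Per exon length the cytosolic enzymes were the more abundant class. The 9 members with the highest mean CPM per kb were cytosolic and the 8 with the lowest were mitochondrial. *Vars* (67.7 CPM per kb over all libraries), *Gars* (46.1) and *Sars*, the seryl-tRNA synthetase (43.7), led the order. *Wars2* (1.53), *Nars2*, the mitochondrial asparaginyl-tRNA synthetase (1.90), and *Mars2* (2.09) closed it. Neighbours in the order cannot be separated, since all 35 neighbouring pairs overlapped in their ranges over the 6 libraries. The median over the cytosolic members was 22.5 CPM per kb for Naive, 17.0 for Th17 and 22.4 for Th1, and that over the mitochondrial members 7.21, 4.47 and 3.97. In 11 of the 13 pairs the cytosolic gene was the higher per kb in every library, the exceptions being *Lars* with *Lars2* and *Cars* with *Cars2*. The lengths are unions of all annotated exons, so genes with long untranslated or retained parts are placed too low.

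**Figure D5:**
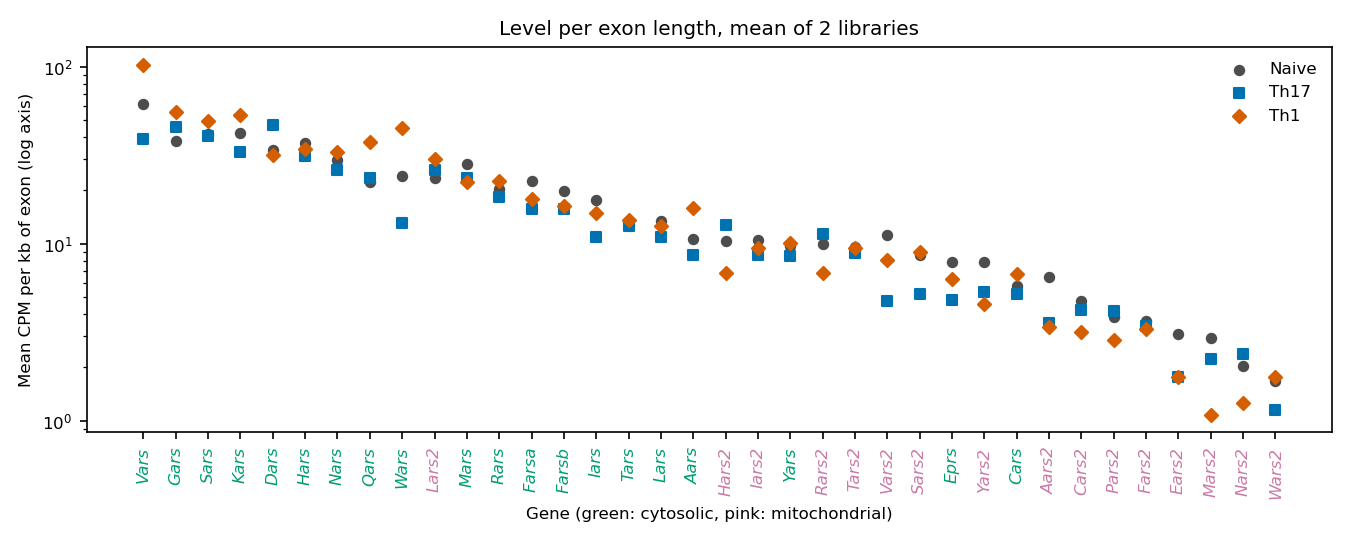
Mean CPM per kb of exon (log axis, mean of 2 libraries) of the 36 synthetases in Naive (circles), Th17 (squares) and Th1 (diamonds), ordered by the mean over all libraries. Green names are cytosolic and pink names mitochondrial. *Vars* heads the order at 67.7 and *Wars2* ends it at 1.53 CPM per kb, and *Lars2* is the single mitochondrial gene among the 10 highest.

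The promoters of the members were read for motifs of the pathways named above. RefSeq windows from 250 bases before to 50 after the start (GRCm38.p6) were matched for 26 of the 36 genes. They gave 12 windows of cytosolic and 15 of mitochondrial genes. The 10 genes without a window, *Wars* and *Vars* among them, were not read for motifs. The amino acid response motif TGATGNAA, on either strand, was found in 5 of the 12 cytosolic windows (41.7%), in 0 of the 15 mitochondrial windows and in 3.97% of all 32851 windows. The E-box CACGTG, the site of MYC and related factors, was in 4 cytosolic windows (33.3%: *Aars*, *Farsb*, *Iars* and *Tars*) and 1 mitochondrial window (6.67%: *Ears2*), against 7.15% of all. The gamma-activated site TTCNNNGAA, an element of promoters that respond to interferon-γ, was in 2 cytosolic windows (16.7%: *Aars* and *Kars*) and 1 mitochondrial window (6.67%: *Nars2*), against 8.3% of all. Matches of different motifs overlapped in 0 of these windows. A match of the amino acid response motif follows for each of the 5 genes, as 30 bases 5′ to 3′ on the gene's own strand with the matched letters in capitals, shown because this motif was matched in cytosolic windows and in none of the mitochondrial windows. They lie at chr8:111033840-111033869 (*Aars*), chr6:55037960-55037989 (*Gars*), chr13:49682126-49682155 (*Iars*) and chr4:129189895-129189924 (*Yars*), all on the plus strand, and at chr15:11399655-11399684 on the minus strand (*Tars*).
*Aars*: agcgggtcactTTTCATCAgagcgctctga
*Gars*: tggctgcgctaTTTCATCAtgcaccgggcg
*Iars*: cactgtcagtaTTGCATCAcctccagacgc
*Tars*: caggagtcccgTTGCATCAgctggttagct
*Yars*: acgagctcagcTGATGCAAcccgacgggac

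Of the members that passed the test, *Mars2* and *Vars2* had a window. The 250 bases before the start are given 5′ to 3′ on the gene's own strand for *Mars2* (chr1:55236927-55237176, plus strand) and *Vars2* (chr17:35667593-35667842, minus strand), as the promoters of the mitochondrial genes that fell. None of the 3 motifs was matched in them.
*Mars2*: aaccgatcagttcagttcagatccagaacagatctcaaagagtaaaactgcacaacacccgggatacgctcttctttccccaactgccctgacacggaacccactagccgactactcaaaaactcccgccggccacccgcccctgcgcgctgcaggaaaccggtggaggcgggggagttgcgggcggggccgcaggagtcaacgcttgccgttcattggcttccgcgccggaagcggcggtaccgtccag
*Vars2*: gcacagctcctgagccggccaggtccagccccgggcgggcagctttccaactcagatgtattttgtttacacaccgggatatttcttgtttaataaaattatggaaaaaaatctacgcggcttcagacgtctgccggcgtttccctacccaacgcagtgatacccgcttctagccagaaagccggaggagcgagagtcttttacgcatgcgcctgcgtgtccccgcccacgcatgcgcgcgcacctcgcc

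Genes that work beside the synthetases were examined in lists too short to be told apart from the share over all genes. At an adjusted p under 0.05 that share was 15.9% in Th17 against Naive and 16.4% in both comparisons of Th1. Of the 3 scaffold genes of the multisynthetase complex, *Aimp2* rose in Th1 over Naive by a log2 difference of 1.04 ± 0.30 (adjusted p = 0.039, edgeR), from 48.0 and 29.2 CPM to 77.4 and 82.1 CPM, and *Aimp1* and *Eef1e1* did not pass in any comparison. Of 4 further genes of mitochondrial tRNA charging (*Qrsl1*, *Gatb*, *Gatc* and *Mtfmt*), 0 passed an adjusted p under 0.05 in any comparison by edgeR. Their median log2 fold change was -0.06 in Th17 against Naive, -0.43 in Th1 against Naive and -0.46 in Th1 against Th17.

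The 14 genes of the amino acid response, the pathway in which GCN2 senses uncharged tRNA and ATF4 induces its targets, did not move as a group. At an adjusted p under 0.05, 3 rose in Th17 over Naive and none fell, beside 15.9% of all genes in either direction. In Th1 against Naive 2 rose and 1 fell, beside 16.4% of all genes. In Th1 against Th17 2 rose and 2 fell, also beside 16.4%. The medians were -0.09, 0.10 and -0.01. *Trib3*, a pseudokinase induced by ATF4, was at 4.15 and 4.70 CPM in Naive, 14.0 and 16.1 CPM in Th17, and 12.5 and 20.1 CPM in Th1, and rose by 1.88 ± 0.37 in Th1 over Naive (adjusted p = 0.0073, edgeR). *Ddit4*, an inhibitor of mTORC1 signalling, was lower in Th1 than in Naive by -1.71 ± 0.31 (adjusted p = 0.0048, edgeR). *Slc7a11*, the cystine transporter subunit, was at 3.55 and 20.5 CPM in Th17 and at most 0.356 CPM in the 4 other libraries, and passed in both comparisons with Th17 (adjusted p = 0.0036 against Naive, edgeR). *Chac1*, a glutathione-degrading enzyme, passed against Naive in both cultures but at no more than 1.16 CPM.

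Of 8 interferon-γ response genes, 4 rose in Th1 over Naive and 5 in Th1 over Th17 at an adjusted p under 0.05. Over all genes the shares that rose were 9.1% and 8.25%. *Ido1* was the 1 gene lower in Th1 than in Th17. In Th17 against Naive 3 rose and 1 fell, beside 15.9% of all genes in either direction. The median fitted log2 fold change was 2.51 in Th1 over Naive, 1.53 in Th1 over Th17 and 0.35 in Th17 against Naive. *Ido1* was at 0 in both Naive libraries. *Gbp2*, an interferon-inducible GTPase, was at 43.5 and 48.1 CPM in Naive, 148 and 105 CPM in Th17, and 2424 and 3316 CPM in Th1. Its relative *Gbp3* was higher in Th1 than in Th17 by 2.61 ± 0.30, *Irf8*, a transcription factor of the pathway, by 2.36 ± 0.31, and *Tap1*, a peptide transporter of antigen presentation, by 2.01 ± 0.30 (log2 differences ± SE). *Wars* differed by 1.78 on the same scale.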

How the data were processed

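RNA-Seq was examined in 6 libraries from mouse T cells, with 2 replicates for every cell type. Per the labels, total RNA was reverse transcribed from PolyT primers by the Smart-seq2 protocol, and the cDNA was sheared for library construction. The deposited values are raw counts per gene, which the authors made with HISAT2 (2.2.1) on mm10 and HTSeq (0.13.5). The methods text states that duplicates were removed and that HTSeq ran with its defaults, while the study's code shows no such removal and counts on the reverse strand. Overlapping genes are therefore uncertain. Exons of 13 of the 36 members overlap another gene in the annotation used here, most in *Iars2* (24.2%) and *Aars* (15.1%). The authors' gene annotation is not given in the sources used here.

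The count model was fitted with edgeR 4.0.16 in R 4.3.3 (quasi-likelihood test, filterByExpr, TMM factors 0.862 to 1.09, cell type as the only term, all 6 libraries, Benjamini-Hochberg over 13607 genes). The SE is the log2 fold change divided by the square root of F. The rule of an adjusted p under 0.01 with a log2 fold change beyond 1 in either direction follows the study, and 0.05 alone was the second rule. DESeq2 1.42.0, other scalings and filters, the replicate number as a block, thinning and leaving out each library were the alternatives. The fit was tested on simulated data. Exon lengths and positions came from GENCODE vM21 (GRCm38). The p-values measure the spread between 2 replicates per cell type, which the sources call biological without naming the animals.

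The members and gene lists were chosen with earlier results of these data known, so no list serves as independent support. Values per library were given for members at an adjusted p under 0.05 in any comparison and for *Kars*, *Gars* and *Wars*, with the 3 highest and 3 lowest members per kb, and for at most 4 genes of each related list, those with the smallest adjusted p. *Qars*, *Lars2*, *Ido1*, *Cxcl9* and the marker genes given with levels of their own were added after their values were seen. Of the macrophage list, 1 of 5 genes was not used here. Promoters came from RefSeq (GRCm38.p6). Protein sequences were not used here. A few genes and sequences of the planned lists are not reported here.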

Additional observations from a re-analysis of the deposited data

Results flagged for a closer look

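The change of *Wars* from Naive differed between the cultures: it was 0.89 on the log2 scale in Th1 and -0.88 in Th17. The difference, 1.78, is the Th1 to Th17 contrast of the fit, with an adjusted p of 0.0027 by edgeR. Both Th1 libraries lay above and both Th17 libraries below the Naive libraries, which the 2 changes share. With 2 libraries per cell type, no single library could be examined as an outlier within its group.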

How the results depend on the processing

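Over the alternatives, *Wars*, *Vars*, *Vars2*, *Mars2*, *Kars* and *Gars* kept their direction in every comparison, with 1 exception. *Gars* in Th17 against Naive was -0.016 without Naive replicate 2 (range over single libraries left out, -0.016 to 0.59). Of these members the stricter rule called only *Wars* in Th1 against Th17 in the main fit, so a count of kept calls would say little. The 7 calls at an adjusted p under 0.05 were lost in 10 of 56 values under another setting, all of them for *Wars* against Naive, and in 23 of 42 with a library left out. By the stricter rule, Th17 against Naive had 1 mitochondrial call (*Vars2*) with DESeq2 or without a filter, and Th1 against Naive 1 (*Mars2*) with DESeq2, library size alone, no filter or the replicate block. Th1 against Th17 had 2 cytosolic calls (*Vars* and *Wars*) with DESeq2, no filter or the replicate block, and 1 mitochondrial call (*Mars2*) with DESeq2. At an adjusted p under 0.05 with any fold there was 1 cytosolic and 1 mitochondrial call against Naive in each culture, and 2 and 1 in Th1 against Th17. Leaving out 1 library gave 0 to 1 cytosolic calls in Th1 against Th17 and 0 otherwise. A lone library is then assumed to vary like the other groups.

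Library size alone moved the mitochondrial median to -0.75 in Th1 against Naive and -0.29 in Th1 against Th17, and the cytosolic median to 0.084 in Th1 against Th17 and, with a change of sign, to -0.12 in Th1 against Naive. Leaving out 1 library, the mitochondrial medians ranged from -0.45 to -0.11 (Th17 against Naive), -0.61 to -0.27 (Th1 against Naive) and -0.26 to -0.037 (Th1 against Th17), and the cytosolic medians from -0.53 to 0.06, -0.09 to 0.36 and 0.13 to 0.45. The cytosolic medians against Naive thus changed sign. Per kb the class ratio came to 6.01 in Th1, against 4.13 in Naive and 4.14 in Th17, and without *Lars2* the CPM ratio was 4.53, 4.75 and 7.30 in Naive, Th17 and Th1. Calls over all genes were 739, 1014 and 752 by edgeR, 1738, 1928 and 1824 by DESeq2 and 2154, 2259 and 2232 without a filter.

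The deviations of same-numbered libraries over 13607 genes correlated with r of -0.29 (Naive and Th17), 0.22 (Naive and Th1) and 0.10 (Th17 and Th1). Replicate 1 was the deeper library in each cell type, and the sources do not say what else same-numbered libraries share. The replicate block gave 1035, 1402 and 1041 calls over all genes, against 739, 1014 and 752 without it.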

Other observations

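Genes of the steps after tRNA charging were read in the same fit. Over all genes, 15.9% passed an adjusted p under 0.05 in Th17 against Naive and 16.4% in both comparisons of Th1. Lists as short as these cannot be told apart from such shares. Of 5 cytosolic elongation factor genes, *Eef2*, the translocase of the ribosome, was higher in Th1 than in Th17 by a log2 difference of 1.41 ± 0.39 (adjusted p = 0.038, edgeR), with 7381 and 12399 CPM against 4069 and 3400 CPM. The Naive libraries held 5529 and 6255 CPM. The other 4 did not pass in any comparison. Of 9 mitochondrial translation factor genes, 0 passed an adjusted p under 0.05 in any comparison. Their median log2 fold change was -0.39 in Th17 against Naive, -0.40 in Th1 against Naive and -0.15 in Th1 against Th17. *Tufm*, the mitochondrial elongation factor Tu, came nearest, at 119.5 and 83.8 CPM for Naive, against 61.2 and 52.3 CPM for Th17 (log2 difference -0.84 ± 0.28, adjusted p = 0.068, edgeR).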
